A study of Mus musculus with 17 samples.

Results

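The 78 protein-coding mouse genes whose symbols begin with Mrpl or Mrps followed by a digit encode mitochondrial ribosomal proteins, and they were picked by symbol alone from the 54838 genes counted in every library. Of these genes 49 carry an Mrpl and 29 an Mrps symbol. By subunit, 51 were counted as large and 27 as small, because Mrps18a and Mrps30 sit in the large subunit despite their names, and the others were placed by symbol. Bulk RNA sequencing covered sorted haematopoietic stem cells (HSCs) from C57BL/6 Jrj mice, taken from marrow enriched for c-kit as live cells that were lineage-negative, c-kit+, Sca1+, CD48- and CD150+. Young control mice were 8 to 12 weeks old (4 libraries), and young CCCP mice of that age received 1 injection of 0.3 mg/kg CCCP, a protonophore that uncouples mitochondria (5 libraries). Old control mice were over 18 months old (3 libraries), and old Mito-Q mice of that age received Mito-Q, an antioxidant targeted to mitochondria, in 5 injections of 2 mg/kg on consecutive days (5 libraries). All injections were intraperitoneal, and the labels name no vehicle for the controls, no interval between injection and sorting, and no transgene. They do not state that each library came from a separate mouse, so every p-value measures the spread between libraries, which may be partly technical.

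Mitochondria carry their own ribosome, which translates the few membrane proteins of the respiratory chain that mitochondrial DNA encodes. Its RNAs are transcribed inside the organelle, whereas all of its proteins are encoded in the nucleus, made by cytosolic ribosomes and imported. Some of these proteins descend from bacterial ribosomal proteins and others have no bacterial counterpart. HSCs are known for a low reliance on respiration at rest, and mitochondrial translation supplies subunits that respiration needs when the cells are activated.

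The promoters of 3 members are shown because these genes carry the results below: Mrpl17 and Mrps18a passed the test between old and young controls, and Mrpl45 was the member whose old control libraries all lay above both the young controls and the old Mito-Q libraries. Each run is the 250 bases before the RefSeq start on GRCm38.p6, written 5′ to 3′ on the strand of the gene. Capitals mark the ETS motif CCGGAAG and the NRF1 motif (GCGC, any base, then TGCGC) on either strand. The runs lie at chr7:105811088-105811337 on the minus strand for Mrpl17, chr17:46110754-46111003 on the plus strand for Mrps18a and chr11:97315466-97315715 on the plus strand for Mrpl45.
Mrpl17: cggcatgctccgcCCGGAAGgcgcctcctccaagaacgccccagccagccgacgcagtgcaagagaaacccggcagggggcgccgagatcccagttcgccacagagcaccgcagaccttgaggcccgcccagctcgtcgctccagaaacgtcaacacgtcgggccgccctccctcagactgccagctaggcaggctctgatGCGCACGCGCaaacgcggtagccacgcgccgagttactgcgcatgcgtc
Mrps18a: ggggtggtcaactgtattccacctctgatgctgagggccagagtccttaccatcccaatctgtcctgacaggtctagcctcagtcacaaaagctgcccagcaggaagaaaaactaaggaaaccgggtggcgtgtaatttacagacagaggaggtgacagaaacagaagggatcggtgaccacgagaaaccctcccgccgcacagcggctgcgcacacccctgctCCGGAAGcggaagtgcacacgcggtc
Mrpl45: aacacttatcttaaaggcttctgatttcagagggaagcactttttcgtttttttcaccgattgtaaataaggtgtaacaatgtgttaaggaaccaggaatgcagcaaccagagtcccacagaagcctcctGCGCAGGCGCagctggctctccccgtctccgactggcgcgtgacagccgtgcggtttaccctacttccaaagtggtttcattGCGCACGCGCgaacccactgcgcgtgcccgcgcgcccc
The Mrpl17 run holds an ETS and an NRF1 match, the Mrps18a run an ETS match and the Mrpl45 run a pair of NRF1 matches. NRF1 is a transcription factor known for its sites in nuclear genes of mitochondrial proteins, and ETS factors such as GABP bind the CCGGAAG core.

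RefSeq promoters were matched for 69 of the 78 members, Mrps35 and Mrpl19 not among them. The NRF1 motif was present in 10 of these 69 runs (14.5%), and in 5.49% of 16515 protein-coding promoters of the same length. The ETS motif was present in 17 (24.6%), against 9.45% of all promoters and 28.3% of the promoters of cytosolic ribosomal proteins. The cytosolic group held no NRF1 match in 53 promoters. Other motifs were closer to their background. AAGATGG, the core of YY1 sites, was found in 8.7% of members and 4.11% of all promoters, the E-box CACGTG in 7.25% and 6.8%, the cyclic AMP element TGACGTCA in 2.9% and 2.08%, and the GC box GGGCGG in 47.8% and 44.3%. No member had the letters TATAAA in the last 50 bases, as did 3.42% of all promoters. All motifs were sought on both strands except TATAAA, which was sought on the strand of the gene only. A match describes letters only. In the annotation, 23 of the 78 members (29.5%) began within 1000 bases of a protein-coding gene read in the opposite direction, with up to 200 bases of overlap, against 7.94% of 21901 protein-coding genes. Mrpl36 lies in this arrangement beside Ndufs6, which encodes a complex I subunit, and Mrps12 beside Sars2, the mitochondrial seryl-tRNA synthetase.

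The members lie on 17 chromosomes. Their median exon length of 2394 bases was below the 3499 bases of protein-coding genes. The exons of 28 overlap those of a gene on the opposite strand, by 2 to 4590 bases, and no strand setting was stated for the counts. How reads in the shared stretches were counted is not given in the sources used here. Mrpl23, Mrps36 and Mrpl48, the last also among those 28, have named pseudogene copies that could share reads. Exons of Mrpl3, Mrpl33, Mrpl51, Mrpl53, Mrps6, Mrps18c, Mrps24 and Mrps34 overlap those of a gene on the same strand, Gm42688 in the case of Mrpl53. Mrpl53 had 1 read in 1 of the 17 libraries and was not tested, which leaves 77 members. The part of its overlaps in this count was not tested.

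Levels are given as CPM (counts scaled to library size with TMM factors). Each library held between 5649611 and 8120443 reads in genes. The floor used here, 3 reads, came to 0.369 to 0.531 CPM by those totals alone, without TMM factors. Members took 0.377% to 1.05% of the reads in genes. Every tested member had at least 10 reads in every library, except 1 member in young control 3 and 3 members in young CCCP 3. Reads listed as lying in no gene feature made up 17.8% to 60.2% of all reads listed, with 58.4% in old control 1 and 60.2% in young CCCP 3. All 7 genes of the sorting gate were detected in every library, with a summed level of 1558 to 4241 CPM, and Cd48, which the gate excludes, stood at 0 to 19.1 CPM. The summed level of 8 neutrophil genes ran from 397 to 2084 CPM in young controls, 724 to 15458 with CCCP, 1059 to 2312 in old controls and 976 to 13426 with Mito-Q, with none of the 8 at 0 in any library. Among these, the edgeR test called Prtn3 higher with age and in old Mito-Q against young controls, and Elane higher with CCCP, both granule proteases. With age 5 of the 8 genes had a positive and 3 a negative estimate. All 8 were positive with CCCP and in old Mito-Q against young controls. The summed level of 6 erythroid genes ran from 51.9 to 207 CPM in young controls, 114 to 1234 with CCCP, 72.6 to 307 in old controls and 52.5 to 779 with Mito-Q, with up to 2 of the 6 at 0 in a library and none at 0 with CCCP. The part of these cell types in the results was not tested.

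Summed over all members, mitochondrial ribosomal transcripts were highest in 2 of the 3 old control libraries. The group mean was lowest after CCCP, though CCCP libraries overlapped with the young controls. The sums were 4300.3, 4561, 7286 and 4132 CPM in young controls 1 to 4. The 5 CCCP libraries gave 3698, 4029, 4353, 4476 and 3956 CPM. Old controls 1, 2 and 3 gave 4536, 9386 and 11945 CPM, and the 5 Mito-Q libraries gave 4811, 5600.4, 8171, 5251 and 4783 CPM. Old control 1 thus lay within the young controls, while the other two old controls lay above every other library. Young control 3 and old Mito-Q 3 were each far above the rest of their group. Young control 3 also had the fewest genes with a read of all libraries, 17067, against 27515 to 29725 in the other young controls. The part of this in its sum was not tested. Group means were 5069.7 ± 1488 CPM in young controls (SD, n = 4), 4102 ± 313 with CCCP (n = 5), 8622 ± 3763 in old controls (n = 3) and 5723 ± 1409 with Mito-Q (n = 5). In bulk samples, fewer cells of a type and less RNA per cell cannot be told apart.

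**Figure D1:**
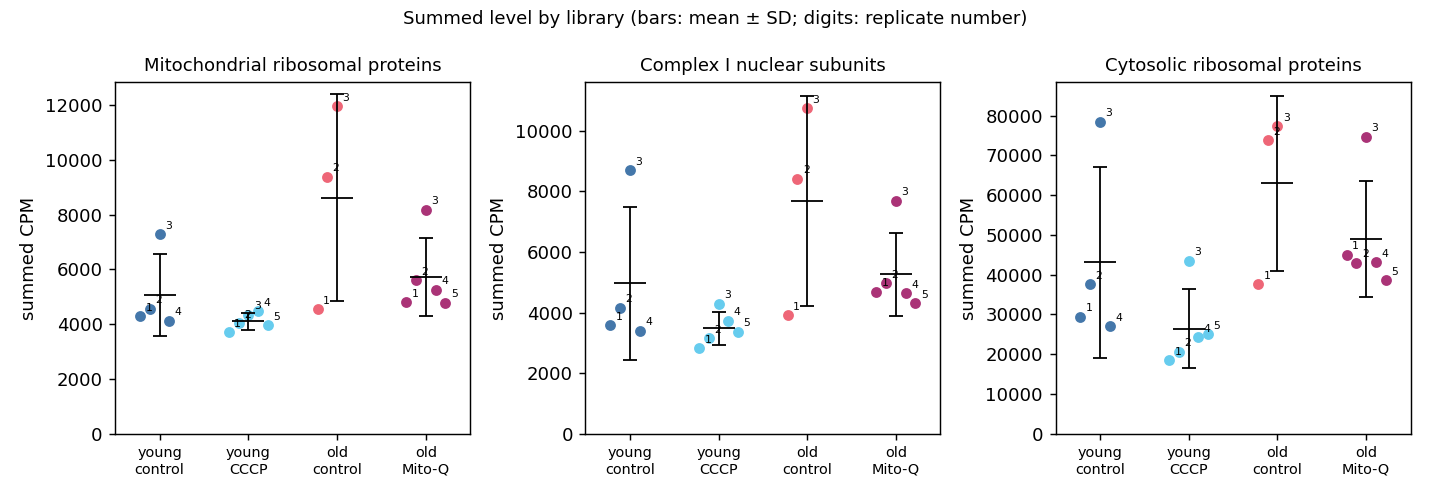
Summed CPM (vertical axes, starting at 0) of mitochondrial ribosomal proteins, complex I nuclear subunits and cytosolic ribosomal proteins in each library, by group on the horizontal axes. Points are libraries with their replicate number, and bars are the mean and SD. Old controls 2 and 3 stand at 9386 and 11945 CPM in the left panel and old control 1 at 4536 CPM.

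Transcripts of the 2 subunits kept their proportion from library to library. The sum differed 3.23-fold between the highest and the lowest library, whereas the ratio of large-subunit to small-subunit transcripts stayed between 2.04 and 2.38, a 1.16-fold range. Complex I, the first enzyme of the respiratory chain, kept a narrower proportion than the sums, with 0.838 to 1.31 CPM of members for each CPM of its nuclear subunits. Members per 1000 CPM of cytosolic ribosomal proteins ranged more widely, from 92.9 in young control 3 to 199.8 in young CCCP 1. These ratios are between sums in the same libraries and are given as a description.

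Single members were spread over a 32.0-fold range of level, measured as CPM per kilobase of exon and averaged over all libraries. The median member stood at 24.4 CPM per kilobase, with 29.2 for the large and 19.6 for the small subunit. The highest were Mrpl34, a large-subunit protein with a bacterial counterpart, at 154 CPM per kilobase, Mrps21, a small-subunit protein, at 109, and Mrpl28, of the large subunit, at 105. The lowest were Mrps22 of the small subunit at 4.82, Mrpl47 of the large subunit at 6.24 and Mrps34 of the small subunit at 6.41. Of the 2064 exon bases of Mrps34, 1309 overlap exons of Mapk8ip3 on the opposite strand, and exons of Mrpl47 overlap those of Actl6a and Ndufb5. The lengths used count such shared bases, and the part of these overlaps in the low levels was not tested. The order of members by level was nearly the same in each group, with a Spearman correlation of at least 0.929 between any 2 group means across the tested members, which share libraries and exon lengths within each mean.

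Between old and young controls, which differed in age, 73 of the 77 tested members had a higher fitted level in old controls, and 3 of them rose by the test. They were Mrps35, a small-subunit protein, Mrps18a, a large-subunit member of the S18 family, and Mrpl17, a large-subunit protein with a bacterial counterpart. None fell. A gene was called when its Benjamini-Hochberg adjusted p in edgeR's two-sided quasi-likelihood test, fitted over 24523 genes in all 17 libraries, was below 0.05. By that rule 0.522% of all genes were called higher and 1.17% lower. The members' median log2 fold change was 0.80, against 0.16 for all genes and -0.13 for protein-coding genes between the quartiles of the members' level.

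Mrps35 (ENSMUSG00000040112, chromosome 6, 147042764 to 147073991, plus strand) measured 59.1, 51.3, 29.9 and 48.1 CPM in young controls 1 to 4. The 3 old controls gave 99.9, 168 and 175 CPM, so that the groups did not overlap. It rose by 1.65 on the log2 scale (SE 0.33, adjusted p = 0.00637 in edgeR). Mito-Q libraries 1 to 5 lay between the control groups at 111, 84.6, 112, 65.5 and 76.5 CPM, with libraries 1 and 3 above old control 1 and all of them above the young controls. CCCP libraries gave 43.4, 45.2, 47.2, 50.3 and 67.0 CPM, a range that overlapped with the young controls.

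For Mrps18a (ENSMUSG00000023967, chromosome 17, 46110986 to 46128910, plus strand) the young controls were 67.4, 59.5, 56.9 and 69.0 CPM, the tightest of the called members. Old controls 1 to 3 stood at 92.0, 158 and 228 CPM. The difference was 1.33 on the log2 scale (SE 0.32, adjusted p = 0.0281 in edgeR) and every old control exceeded every young control. With CCCP the gene lay at 56.9 to 70.4 CPM, and with Mito-Q at 76.1, 107, 137, 89.6 and 68.4 CPM. Its relatives had smaller estimates of the same sign and were not called. Mrps18b measured 21.2 ± 4.94 CPM in young and 28.5 ± 5.88 CPM in old controls (0.42 on the log2 scale, SE 0.48, adjusted p = 0.778 in edgeR), and Mrps18c 32.2 ± 28.2 and 56.3 ± 28.5 CPM (0.81, SE 0.54, adjusted p = 0.552). The 3 paralogues occupy different places in the ribosome, and whether their responses differed from each other was not tested.

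Mrpl17 (ENSMUSG00000030879, chromosome 7, 105803206 to 105811099, minus strand) was measured at 149, 119, 162 and 108 CPM in young and 204, 333 and 457 CPM in old controls. Its log2 fold change was 1.30 (SE 0.33, adjusted p = 0.0412 in edgeR). Again the groups were apart, with old control 1 the lowest of its group. The Mito-Q values were 147, 208, 321, 155 and 146 CPM and overlapped with both control groups.

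**Figure D2:**
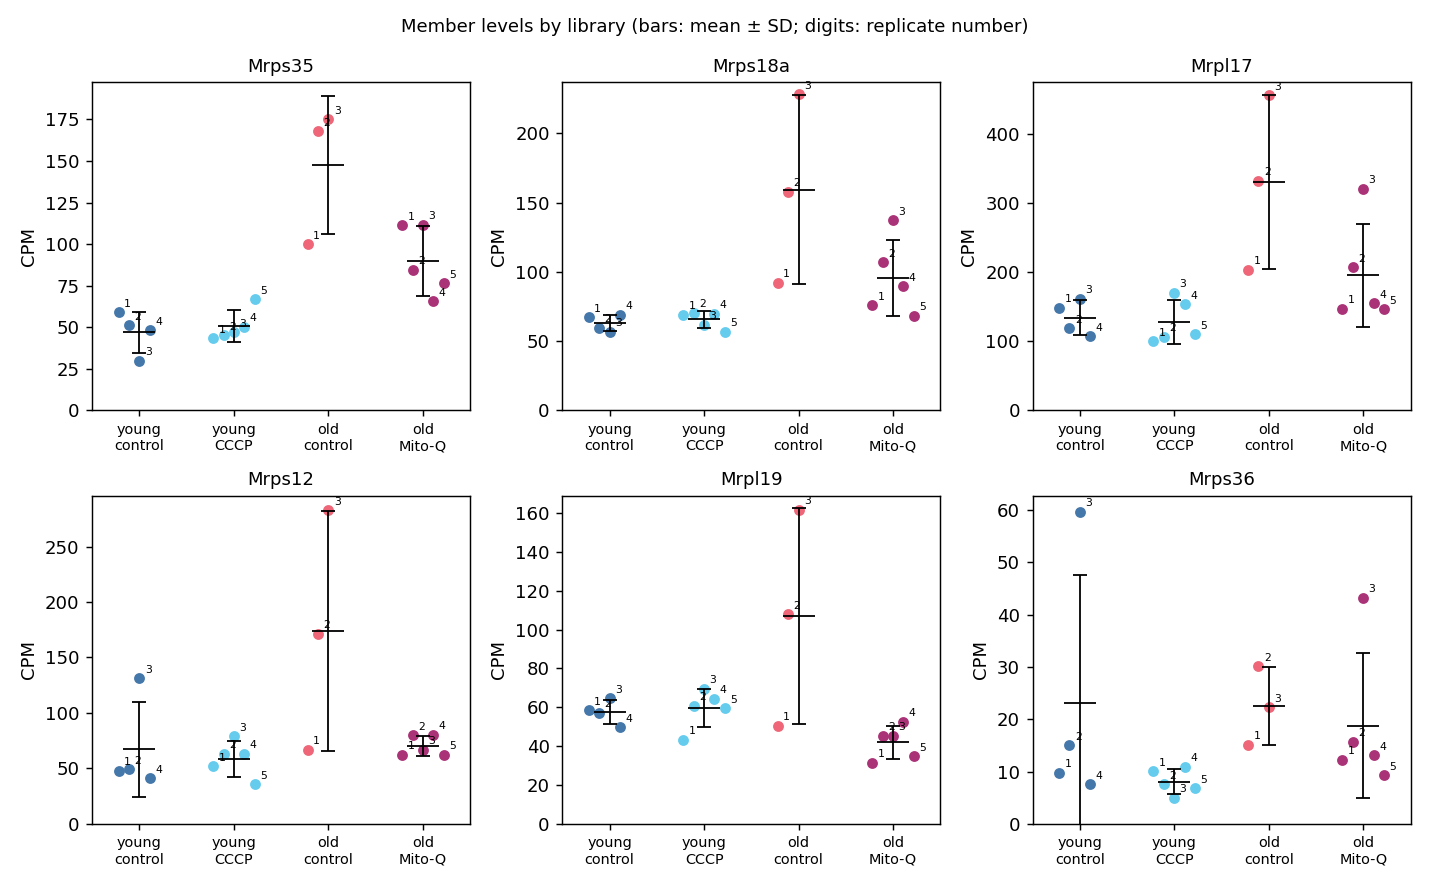
Level of 6 members in each library (vertical axes: CPM, starting at 0; horizontal axes: group; digits: replicate number; bars: mean and SD, the lower bar for Mrps36 in young controls being cut at 0). In Mrps35, Mrps18a and Mrpl17 all 3 old controls lie above all young controls, and in Mrps12, Mrpl19 and Mrps36 they overlap.

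Members just short of the threshold had old controls that overlapped with the young ones. Mrpl14, a conserved large-subunit protein, measured 32.4, 31.2, 46.7 and 20.9 CPM in young and 41.5, 102 and 98.5 CPM in old controls (log2 fold change 1.29, adjusted p = 0.0752 in edgeR). Mrpl51 of the large subunit gave 47.6, 64.4, 94.5 and 48.6 CPM against 78.0, 174 and 274 CPM (1.46, adjusted p = 0.0772). In these 2 genes old control 1 fell within the range of the young controls. Mrpl2, a large-subunit protein with a bacterial counterpart, gave 29.1, 28.4, 17.7 and 37.7 CPM against 34.8, 86.5 and 99.2 CPM (1.38, adjusted p = 0.0809). Mrps12, the small-subunit protein of the decoding centre, gave 48.0, 49.0, 131 and 41.1 CPM in young and 66.7, 171 and 283 CPM in old controls (1.37, adjusted p = 0.112). Young control 3 alone stood above old control 1 in this gene.

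Old controls lay wholly above young controls in 8 of 77 members (10.4%), where 5.04% of all genes did so. Besides the 3 that rose, these were Mrpl38, Mrpl40, Mrpl45, Mrpl49 and Mrps34. Mrpl45, which anchors the ribosome at the inner membrane, measured 87.5, 82.2, 42.8 and 112 CPM in young and 113, 135 and 137 CPM in old controls (log2 fold change 0.66, adjusted p = 0.359 in edgeR). Mrps34, a small-subunit protein whose exons overlap Mapk8ip3 on the opposite strand, measured 5.49, 10.6, 8.65 and 6.57 CPM in young and 14.3, 18.6 and 40.1 CPM in old controls (1.63, adjusted p = 0.245). No member lay wholly below the young controls, where 6.5% of all genes did. An unadjusted p below 0.05 was found for 35 members, all of them higher, where 6.77% of all genes were higher by that measure. DESeq2 called 14 members higher and none lower, where it called 3.25% of all genes with an adjusted p higher.

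The 4 members with a negative estimate were Mrps2 at -0.30, Mrps27 at -0.07, Mrps30 at -0.05 and Mrps36 at -0.03 on the log2 scale. Mrps30, a protein without a bacterial counterpart that sits in the large subunit, gave 71.7, 57.5, 46.9 and 97.4 CPM in young and 16.9, 109 and 71.7 CPM in old controls. Its lowest value was again that of old control 1. Mrps36, since described as a subunit of the alpha-ketoglutarate dehydrogenase complex, measured 9.80, 15.1, 59.7 and 7.62 CPM in young and 15.1, 30.1 and 22.3 CPM in old controls. Young control 3 was the highest of all libraries for this gene.

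The median log2 fold change was 0.82 over the large and 0.78 over the small subunit, and it was similar in members with (0.79) and without (0.82) a bacterial counterpart. Mrpl11 and Mrpl12, which form part of the stalk that recruits translation factors, had estimates of 0.73 (adjusted p = 0.382 in edgeR) and 1.09 (adjusted p = 0.207). Mrpl58, a peptidyl-tRNA hydrolase that releases stalled chains, had 0.74 (adjusted p = 0.482).

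**Figure D3:**
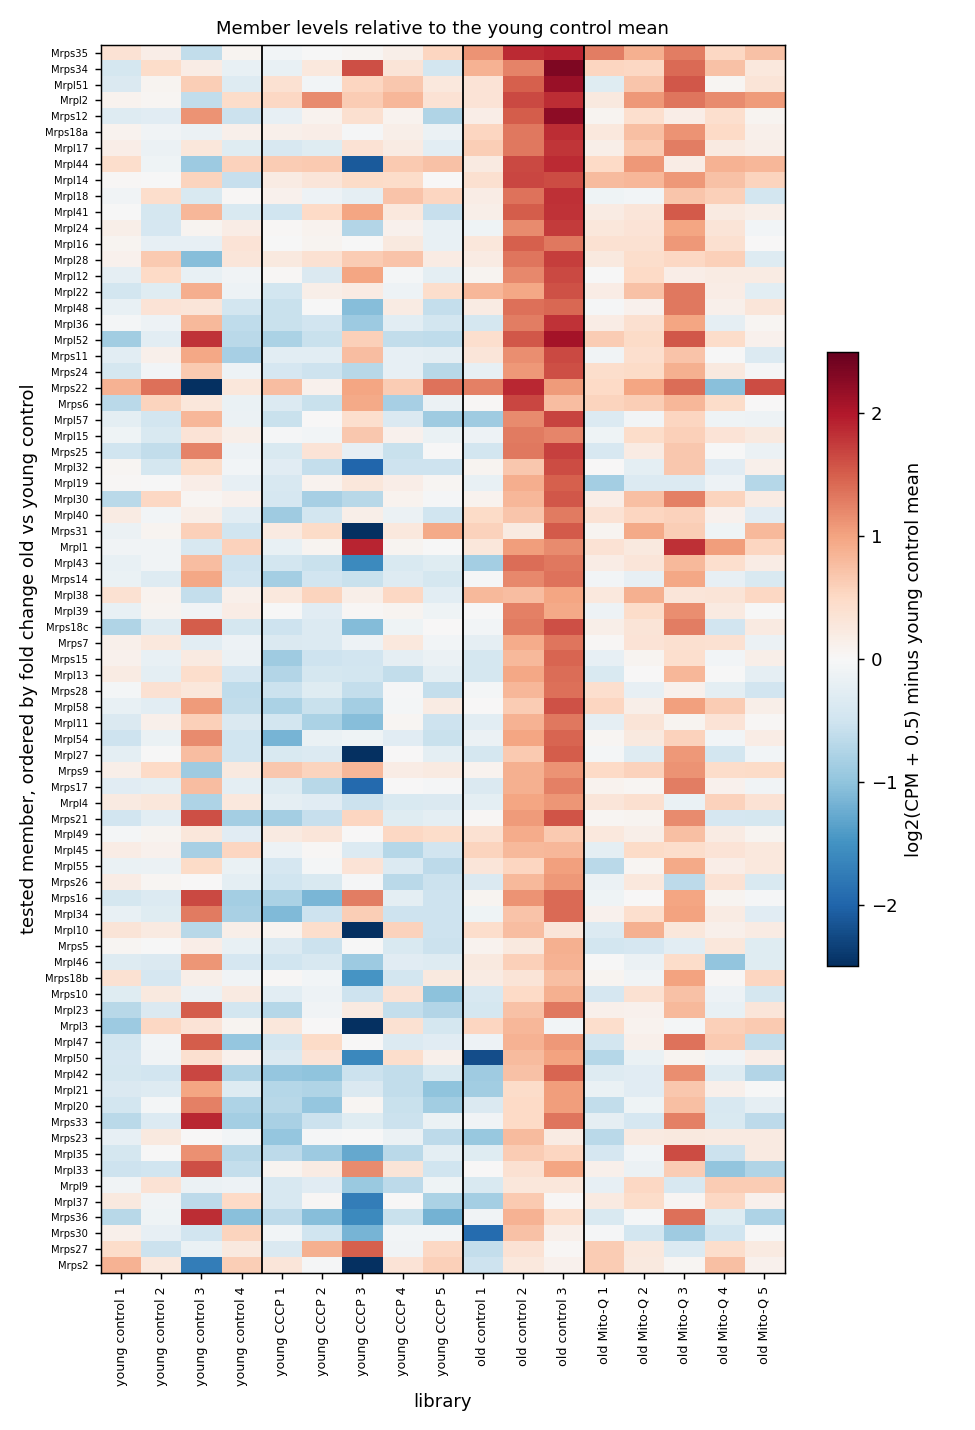
Level of each tested member (rows, ordered by the fold change between old and young controls) in each library (columns), coloured by log2(CPM + 0.5) minus the young control mean, from blue (lower) to red (higher) with the scale limited at 2.5 either way. The columns of old controls 2 and 3 are red in nearly every row, while old control 1 is mixed.

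The old control libraries differed from each other. Old control 1 was the lowest of the 3 in 72 of 77 members and old control 3 the highest in 60. In old control 2, 54 members exceeded every young control and in old control 3, 57, whereas in old control 1, 10 exceeded and 15 lay below every young control. No shares over all genes were worked out for these counts by library, so they cannot show a trait particular to the members. Old control 1 had 58.4% of its reads in no gene feature, against 17.8% and 20.9% in old controls 2 and 3, and the part of this share in the difference was not tested. Without old control 1, 18 members rose, where 1.5% of all genes were called higher, and the median was 1.13. Without old control 2 none was called, where 0.101% of all genes were called higher, and without old control 3 none either, where 0.105% were, with a median of 0.44. The call of Mrps35 was lost in both cases (adjusted p = 0.101 in edgeR for each), and those of Mrps18a (0.172 and 0.421) and Mrpl17 (0.184 and 0.405) as well.

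Other libraries left out changed the count too. Leaving out young control 1, 2 or 4 left 1 member called, where 0.221%, 0.269% and 0.249% of all genes were called higher. Without young control 3 there were 6 (0.621% of all genes), and without young CCCP 3 there were 5 (1.07% of all genes). Without old Mito-Q 2 or old Mito-Q 4 or young CCCP 5, Mrpl17 lost its call at an adjusted p of 0.0577, 0.0526 and 0.0543 in edgeR. With young control 3, young CCCP 3 and old control 1 all left out, 54 of 77 members rose, 38 of the large and 16 of the small subunit, and 5.56% of all genes were called higher. In that fit the members' median was 1.36 and that of all genes -0.39. Young control 3 had the highest member sum of the young controls and old control 1 the lowest of the old controls. Leaving both out favours a larger count in advance, so the 54 members are no independent support for a rise.

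**Figure D4:**
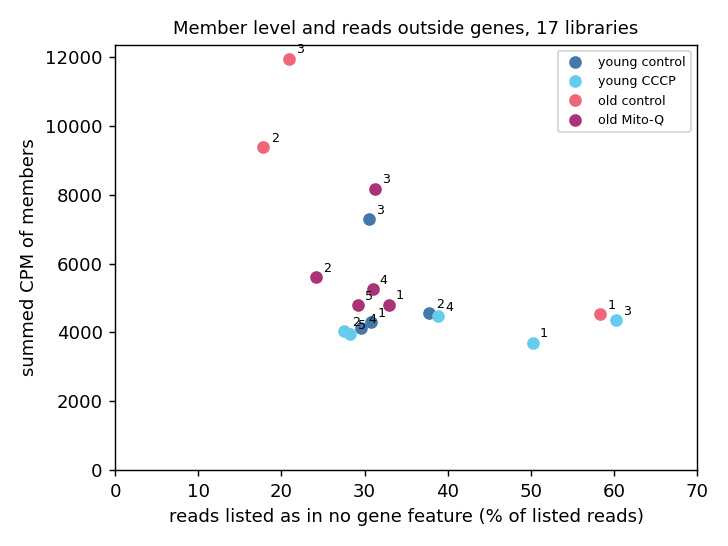
Summed CPM of the members (vertical axis, starting at 0) against the share of listed reads in no gene feature (horizontal axis, percent) in 17 libraries, coloured by group with replicate numbers. Old controls 2 and 3 combine the highest sums with shares of 17.8% and 20.9%, old control 1 and young CCCP 3 lie at 58.4% and 60.2%, and the rest other than young CCCP 1 fall between 24.2% and 38.9%.

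Genes of the immediate early response, which cells switch on rapidly when stimulated, also differed between these groups. Their summed level was 9986 to 17972 CPM in young controls, 1605 to 2662 in old controls, 729 to 1600 with CCCP and 18848 to 32670.0 with Mito-Q. The part of this difference in the members' levels was not tested.

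In old mice given Mito-Q, 71 of the 77 tested members had a lower fitted level than in old controls, and no member was called in either direction by edgeR. Of all genes, 0.526% were called higher and 0.0163% lower. An unadjusted p below 0.05 was found for 19 members, all lower, where 4.93% of all genes were lower by that measure. DESeq2 called 1 member, Mrpl19, lower, and 0.759% of all genes with an adjusted p. The members' median log2 fold change was -0.60, against -0.12 for all genes and 0.09 for protein-coding genes of similar level. The old controls are shared with the comparison of age, so the opposite signs of 69 members are not independent of it.

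Mrpl19 (ENSMUSG00000030045, chromosome 6, 81957851 to 81965958, minus strand), a large-subunit protein with a bacterial counterpart, had the smallest p. With Mito-Q it measured 31.6, 45.3, 45.3, 52.6 and 34.7 CPM. Old controls gave 50.6, 108 and 162 CPM, and the log2 fold change was -1.35 (SE 0.34, adjusted p = 0.0746 in edgeR and 0.00126 in DESeq2). Old control 1 overlapped with the treated libraries. Young controls lay at 49.7 to 64.7 CPM and CCCP libraries at 43.3 to 69.6 CPM. Of the 5450 exon bases of Mrpl19, 1962 overlap exons of Gcfc2 on the opposite strand.

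Mrps12 had 62.4, 79.7, 67.0, 80.4 and 62.4 CPM with Mito-Q, a log2 fold change of -1.30 from old controls with a 95% interval of -2.12 to -0.48 (adjusted p = 0.224 in edgeR). Mrpl18, a large-subunit protein also described in the import of 5S ribosomal RNA, went from 58.4, 132 and 183 CPM in old controls to 47.2, 48.3, 82.4, 77.0 and 37.0 CPM (-1.09, adjusted p = 0.291). For Mrpl28 the values were 116, 255 and 334 CPM against 119, 138, 144, 154 and 80.9 CPM (-0.89, adjusted p = 0.371). In each of these the lowest old control lay among the Mito-Q libraries and the other two above them.

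Mrps28 of the small subunit measured 53.5, 99.2 and 144 CPM in old controls and 39.8 to 74.7 CPM with Mito-Q (-0.87, adjusted p = 0.379 in edgeR). Mrps35 and Mrps18a, which rose with age, had estimates of -0.72 (adjusted p = 0.427) and -0.74 (adjusted p = 0.400). The only member whose Mito-Q libraries all lay below the old controls was Mrpl45, at 64.3, 107, 104, 97.4 and 91.8 CPM against 113 to 137 CPM. That is 1 of 77 members (1.3%), where 2.2% of all genes did so, and its fitted difference of -0.46 was not called (adjusted p = 0.669).

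The 6 members with a positive estimate were Mrps2 at 0.40, Mrps27 at 0.30, Mrpl37 at 0.22, Mrpl9 at 0.21, Mrpl35 at 0.06 and Mrpl1 at 0.05 on the log2 scale. Old Mito-Q 3 was the highest of its group in 55 members, and no share over all genes was worked out for this count. That library also stood apart in the sums of cytosolic ribosomal proteins (74667 CPM) and complex I subunits (7685 CPM). Mrpl35, a large-subunit protein, stood at 294 CPM in old Mito-Q 3 and at 65.7 to 112 CPM in the other Mito-Q libraries.

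The size of the Mito-Q difference rested on the same old controls. Without old control 1 the median was -0.94 and Mrpl19 and Mrps12 fell (2 of 77, where 0.171% of all genes were called lower), without young CCCP 3 Mrpl19 fell (0.0721% of all genes were called lower), and without old control 3 the median was -0.29 with none called. With young control 3, young CCCP 3 and old control 1 left out, 32 members fell, 20 of the large and 12 of the small subunit. In that fit 2.78% of all genes were called lower, and the members' median was -0.92. Leaving out old control 1, which had the lowest member sum of the old controls, favours a larger fall in advance.

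In young mice given CCCP, no member was called in either direction, and 55 of 77 had a lower fitted level than in young controls. Among all genes 0.0652% were called higher and 0.652% lower. An unadjusted p below 0.05 was found for 4 members, all lower, where 4.8% of all genes were lower by that measure, a share close to that of the members. DESeq2 called no member, where it called 1.65% of all genes with an adjusted p lower. The median log2 fold change was -0.33, against 0.21 for all genes and -0.07 for protein-coding genes of similar level.

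Mrps36 (ENSMUSG00000061474, chromosome 13, 100735955 to 100744659, minus strand) had the smallest p of the members here. CCCP libraries gave 10.1, 7.53, 5.02, 10.9 and 6.84 CPM, a difference of -1.50 in log2 (SE 0.60, adjusted p = 0.362 in edgeR), and without young control 3, which stood at 59.7 CPM, the estimate was -0.43. Mrpl42, a large-subunit protein without a bacterial counterpart, was at 139, 136, 601 and 112 CPM in young controls and 94.2 to 145 CPM with CCCP (-1.06, adjusted p = 0.398), and its estimate was -0.15 without young control 3.

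Mrpl21 measured 54.6, 55.9, 140 and 56.1 CPM in young controls and 42.2, 41.3, 54.3, 45.2 and 34.8 CPM with CCCP (-0.81, adjusted p = 0.405 in edgeR). It was the only member whose CCCP libraries all lay below the young controls (1.3%, against 2.89% of all genes). Its exons overlap those of Ighmbp2 on the opposite strand. Mrpl20 stood at 209 CPM in young control 3, 51.1 to 84.6 CPM in the other young controls and 44.5 to 90.6 CPM with CCCP (-0.79, adjusted p = 0.455). Without young control 3 the members' median was -0.08. With library totals in place of TMM factors it was -0.16.

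**Figure D5:**
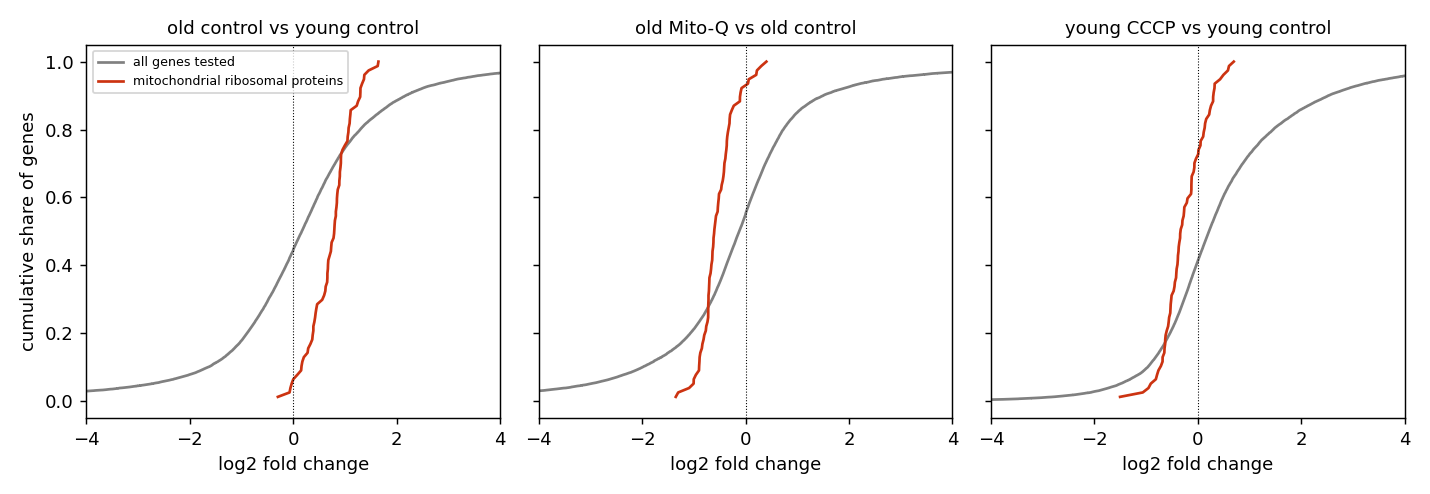
Cumulative share of genes (vertical axes) at or below each log2 fold change (horizontal axes, shown from -4 to 4) for the tested members (red) and all genes tested (grey) in 3 comparisons. The red curves cross the middle at 0.80 between old and young controls, -0.60 with Mito-Q and -0.33 with CCCP, where the grey curves cross at 0.16, -0.12 and 0.21.

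Old mice given Mito-Q were also set beside young controls. Of the 77 members 58 had a higher and 19 a lower fitted level, none was called by edgeR, where 0.13% of all genes were called higher and 0.0122% lower. The members' median log2 fold change was 0.22 against 0.01 for all genes. By unadjusted p below 0.05, 4 members were higher and none lower, where 3.8% of all genes were higher. DESeq2 called 0.798% of all genes with an adjusted p higher and 1 member, Mrps35 (0.94, adjusted p = 0.0199; 0.93 and adjusted p = 0.474 in edgeR). Mrps35 was also the only member whose Mito-Q libraries all lay above the young controls (1.3%, against 1.65% of all genes). Mrpl52, a large-subunit protein, was the member called higher when young control 3, young CCCP 3 and old control 1 were left out, where 0.311% of all genes were called higher. Young control 3 was the highest young control for Mrpl52, at 240 CPM, so leaving it out favours that call. The median was 0.10 without old Mito-Q 3 and 0.42 without young control 3. The Mito-Q mean lay between the 2 control means in 52 members, a count that rests on control libraries shared by all 3 differences. No share over all genes was worked out for it.

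The other genes of mitochondrial translation came from lists, and edgeR called none of them in the first 3 comparisons. Of 5 mitochondrial ribosomal proteins under other symbols, Gadd45gip1 and Aurkaip1 had log2 fold changes of 1.16 and 0.87 between old and young controls. Ptcd3, which has RNA-binding repeats, had -1.23 (adjusted p = 0.0891 in edgeR), opposite in sign to most members, and DESeq2 called it lower. With Mito-Q, DESeq2 called Aurkaip1 lower (-1.01 in edgeR). An unadjusted p below 0.05 in edgeR was found for 1 of the 5 in each direction with age and again with Mito-Q, and for none with CCCP.

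The 23 assembly and ribosomal RNA factors had medians of 0.14 with age, -0.10 with Mito-Q and 0.02 with CCCP. Malsu1, which keeps the large subunit from joining early, had 1.37 with age, and Mterf4, which guides a ribosomal RNA methyltransferase, 2.24. DESeq2 called both higher with age and Mterf4 also with CCCP, and the unadjusted p in edgeR was below 0.05 for 2 genes higher and 1 lower with age, 1 lower with Mito-Q and 3 higher with CCCP. Translation factors, of which 13 of 14 were tested, had medians of 0.46, -0.59 and 0.11. Mtif3, an initiation factor, had 1.54 with age, where DESeq2 called it higher, and Gfm1, an elongation factor, -1.01. With Mito-Q the initiation factor Mtif2 had -0.82 and the elongation factor Guf1 -0.76. Unadjusted p-values below 0.05 numbered 1 higher with age, 2 lower with Mito-Q and 2 higher with CCCP.

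Complex I nuclear subunits, cytosolic ribosomal proteins and the 5 mitochondrial ribosomal proteins under other symbols had medians of the same sign as the members. The other lists of mitochondrial genes differed in sign from the members in at least 1 of the comparisons. The 5 proteins under other symbols had medians of 0.71 with age, -0.46 with Mito-Q and -0.43 with CCCP. Complex I nuclear subunits, 36 genes, had 0.63 with age, -0.57 with Mito-Q and -0.51 with CCCP. Cytosolic ribosomal proteins, 78 genes, had 0.48, -0.40 and -0.76. EdgeR called no gene of either list, while unadjusted p-values below 0.05 covered 7 higher and 1 lower complex I genes with age, 5 lower with Mito-Q and 10 lower with CCCP. For cytosolic ribosomal proteins they covered 12 higher with age, 2 lower with Mito-Q, and 41 lower and 1 higher with CCCP. DESeq2 called 2 complex I genes higher and 1 lower, and 4 cytosolic genes higher, with age, none with Mito-Q, and 1 cytosolic gene higher with CCCP. The 2 mitochondrial ribosomal RNAs, transcribed in the organelle, had a median of -0.48 with age, 0.14 with Mito-Q and -1.06 with CCCP, and none was called by edgeR or DESeq2 or had an unadjusted p below 0.05 in these comparisons. Their sum was 49484 CPM in young control 3, which stood apart in its group, where the lowest was 4090 CPM. Old controls ran from 6606 to 15480 CPM. The group mean of log2(CPM + 0.5) was 11.32 in young and 11.85 in old controls, opposite in sign to the fitted change with age. The part of young control 3 in these medians was not tested. Of mitochondrial transcription and mRNA factors 9 of 10 were tested, with medians of -0.02, 0.16 and 0.11. EdgeR called none of them, unadjusted p-values below 0.05 covered 2 higher with age and 2 higher with CCCP, and DESeq2 called Tefm higher with age. Whether the members' shift differed from that of any of these lists was not tested.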

How the data were processed

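RNA was measured in 17 libraries of sorted HSCs, in 4 groups taken from the labels. Per the submitters' processing notes, reads were trimmed with Trim Galore and aligned with STAR 2.7 to GRCm38. The authors deposited raw read counts per Ensembl gene. The counting program, annotation release and strand setting were not given in the sources used here. Entries for reads outside genes were kept out of totals and tests. GENCODE M21, on the same build, matched 54723 of 54838 gene IDs.

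All 17 libraries entered a single fit in edgeR 4.0.16 (R 4.3.3), with robust quasi-likelihood dispersions, TMM factors and no covariate. The filter filterByExpr, set to a minimum count of 10 by group, kept 24523 genes. Fold changes are log2 estimates with standard errors, intervals are 95%, and a gene was called at a Benjamini-Hochberg adjusted p under 0.05. The 4 comparisons share control libraries. DESeq2 1.42.0, other scalings, other filters, 2 groups at a time, a replicate block and left-out libraries were alternatives. The procedure was tested on simulated data. Levels of different genes were compared per kilobase of exon. Heat map values are log2(CPM + 0.5). The floor of 3 reads covers counting error only, since PCR copies are not independent molecules. No library duplicated another of its group (lowest chi-square per degree of freedom 18.2).

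The members, lists and tests were chosen with earlier results of these data known. Members named are those called, the 5 of smallest p in each of the first 3 comparisons, the 3 of highest and 3 of lowest level per kilobase, and 10 with a described role. From the lists, called genes or the 2 of smallest p were named. Other genes, including those whose groups did not overlap or whose sign differed from most, were named after their values were seen. Promoters are from RefSeq on GRCm38.p6.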

Additional observations from a re-analysis of the deposited data

Results flagged for a closer look

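Of 93 groups of values examined, 24 had a library apart from the rest, its gap to the nearest other library exceeding the share of the group's range that Dixon's test allows at 95%. Chance flags about 1 in 20 such groups, and the values share libraries. Young control 3 was the highest of its group for Mrps12 (131.3 CPM), Mrps36 (59.7), Mrpl42 (600.9), Mrpl21 (139.7), Mrpl34 (193), Mrps21 (196.2), Mrps18c (74.4) and Mrpl58 (75.7). It also stood apart in the summed level of the members (7286 CPM), of complex I nuclear subunits (8698 CPM) and of mitochondrial ribosomal RNA (49484 CPM). Young control 2 stood apart for Mrpl12 (49.6 CPM).

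Young CCCP 3 was the highest of its group for Mrpl34 (119 CPM), Mrps34 (24.4), Mrpl12 (70.3) and the sum of cytosolic ribosomal proteins (43560.1 CPM). Old Mito-Q 3 was the highest of its group for Mrps36 (43.2 CPM), Mrpl42 (426), Mrpl35 (294), Mrpl20 (147) and Mrps21 (146), and in the sums of members (8171 CPM), cytosolic ribosomal proteins (74667 CPM) and complex I subunits (7685 CPM). The old controls, a group of 3, were not examined in this way.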

How the results depend on the processing

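Old and young controls gave 128 genes higher and 287 lower. With a minimum count of 30, 202 genes and 5 members were higher. DESeq2 called 652 genes higher, 767 lower and 14 members higher. With only the 2 groups fitted these were 40, 146 and 0. With young control 3, young CCCP 3 and old control 1 left out they were 1432, 1102 and 54. Leaving out single libraries gave 29 to 403 genes higher, 96 to 502 lower and 0 to 18 members higher. The members' median stayed positive at 0.44 to 1.13.

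Mito-Q in old mice gave 129 genes higher and 4 lower. DESeq2 called 381 and 165, and the fit without the 3 named libraries 482 and 716, with 1 and 32 members lower. Lower genes numbered 9 with upper-quartile factors, 16 without a filter on low counts and 11 with a minimum count of 30, with 1 member lower in the first and last of these. Single libraries left out gave 77 to 202 genes higher, 1 to 46 lower, 0 to 2 members lower and a median of -0.94 to -0.29.

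CCCP gave 16 genes higher and 160 lower. Without a filter 97 were higher, DESeq2 called 338 and 331, and 2 groups alone gave 6 and 105. Single libraries left out gave 3 to 21 higher and 120 to 175 lower, with no member called and a median of -0.36 to -0.08.

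Old Mito-Q against young controls gave 32 genes higher and 3 lower. Without a filter these were 70 and 20, with DESeq2 160 and 69 and 1 member higher, and without the 3 named libraries 80 and 43 and 1 member higher. Single libraries left out gave 13 to 47 higher, 1 to 7 lower, no member called and a median of 0.10 to 0.42. The cause of these changes was not tested, beyond the fewer samples or genes in a fit.

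Other scalings moved the median of all genes by over 0.1 in places, with upper-quartile factors from 0.16 to 0.28 with age and from -0.12 to -0.25 with Mito-Q, and with library totals from 0.21 to 0.32 with CCCP. No member median changed sign under them. Mrps18a lost its call without a filter (adjusted p = 0.104 in edgeR) and, like Mrps35 and Mrpl17, with 2 groups alone (adjusted p = 0.112, 0.0505 and 0.116). It lost it also without young control 1, 2, 3 or 4 (0.071, 0.0774, 0.0532 and 0.0648), and Mrpl17 without young control 1, 2 or 4 (0.0889, 0.113 and 0.137).

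The labels number replicates in every group. In the 22 pairs of same-numbered libraries of different groups, deviations correlated at -0.104 to 0.275, 5 of them over 0.1. Of the 17 libraries, 8 correlated best with a library of their own number, and no share by chance was worked out. These counts do not settle whether the number marks a pairing, and the main fit did not use it. A replicate block left 3 members higher with age (median 0.74) and none called in the other comparisons (medians -0.48, -0.25 and 0.25). It moved the lower genes in old Mito-Q against young controls from 3 to 7, and no other count by over 1.5 times.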
